A study of Mus musculus with 656 samples.

Results

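The cytosolic ribosomal protein genes described here were 85 of the 22070 genes in a count table from mouse 3T3 fibroblasts, an established line of embryonic fibroblasts. They were the protein-coding genes with an Rps or Rpl symbol followed by a number, together with Rplp0, Rplp1, Rplp2 and Rpsa. Symbols of the Rps6 kinases and names marked as pseudogenes were not taken. The small subunit gave 34 of the genes and the large subunit 51. A filter on low counts passed 81 of them, 32 of the small and 49 of the large subunit. The 4 that did not pass were Rpl3l, Rpl39l, Rps12 and Rps27rt.

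The groups were cells held for 1 h in SC-514, which blocks the kinase IKKβ, at 25, 50 or 100 µM before a cytokine was added (1 ng/ml of IL-1β, or TNF-α at 10 ng/ml), cells given either cytokine after medium with 0 µM SC-514, and unstimulated cells. Each stimulated group was sampled at 15, 30, 60, 120 and 360 min, which gave 41 groups of 4 libraries, or 164 libraries. No group received SC-514 without a cytokine, and no vehicle is named. RNA was counted by TagSeq, which reads the 3′ ends of polyadenylated transcripts. The code that opens a sample's title and the code that opens its count column were tied to opposite cytokines. Each cytokine is therefore given as the stimulus label states it, and a swap of the labels, which would exchange the names, is not excluded. The count columns of unstimulated, IL-1β and TNF-α libraries also opened with different codes. A difference between these sets of columns cannot be told apart from one between the cytokines, or between a cytokine and unstimulated cells. The labels do not say whether replicate libraries stem from different cultures. The p-values therefore measure the spread between these libraries, which may be technical. In bulk RNA, fewer cells and less RNA per cell cannot be told apart.

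Of 164 libraries, 162 held 928906 to 2469454 counts, with a median of 1292522.5. The other 2 held 12191 counts (labelled IL-1β, 50 µM, 30 min, number 1) and 3839 counts (labelled TNF-α, 50 µM, 120 min, number 1). The fibroblast label matched the collagen genes Col1a1 and Col1a2, at means of 977 and 2190 CPM (tag counts scaled to a common library size). The lowest of 8 fibroblast markers was Pdgfrb, at 114 CPM. The leukocyte gene Ptprc averaged 0.638 CPM and the epithelial gene Epcam 0.00775 CPM. Some other markers were higher, with the leukocyte genes Lyz2 at 6.38 CPM and Cd68 at 4.35 CPM, and the endothelial gene Pecam1 at 4.49 CPM. Of the adipocyte markers, Adipoq averaged 0.0221 CPM, Plin1 3.27 CPM and Lpl 137 CPM.

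Ribosomal proteins form the small and large subunits of the ribosome together with ribosomal RNA, and they are made in matched amounts. Most of their mRNAs begin with a run of pyrimidines, the terminal oligopyrimidine (TOP) motif, through which their translation follows mTOR and LARP1. Their mRNAs are abundant and long-lived, so that levels usually change slowly. IKKβ is the kinase that releases NF-κB after IL-1β or TNF-α.

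Promoter sequences were found for 65 of the members in the RefSeq table for GRCm38.p6. In the lines below, 20 bases lie before the annotated start and 15 run from it, 5′ to 3′ on the strand of the gene, and capitals mark the unbroken run of C and T that opens at the start. Rpl38 and Rpl35 are shown because they fell under the inhibitor in cells labelled IL-1β, Rpl22l1 because it rose there, Rps18 and Rpl41 because they fell at 360 min in cells labelled TNF-α, and Rplp2 and Rpl36al because they differed between the cytokine labels.
Rpl38, chr11:114668560-114668594, plus strand: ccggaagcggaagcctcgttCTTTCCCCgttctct
Rpl35, chr2:39005117-39005151, minus strand: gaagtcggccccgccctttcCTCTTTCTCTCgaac
Rps18, chr17:33955651-33955685, minus strand: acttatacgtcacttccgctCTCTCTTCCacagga
Rplp2, chr7:141447631-141447665, plus strand: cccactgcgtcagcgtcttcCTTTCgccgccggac
Rpl22l1, chr3:28805488-28805522, plus strand: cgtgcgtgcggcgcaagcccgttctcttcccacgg
Rpl41, chr10:128549154-128549188, minus strand: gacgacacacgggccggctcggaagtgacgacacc
Rpl36al, chr12:69184053-69184087, minus strand: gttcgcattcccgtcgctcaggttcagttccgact

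A C at the annotated start followed by 4 bases that were each C or T was present in 14 of 65 members (21.5%) and in 813 of 27025 genes of the table (3.01%). With the C at the start or within 5 bases of it, 30 members (46.2%) and 5718 genes (21.2%) had a match. Of the genes printed above, Rpl38, Rpl35, Rps18 and Rplp2 had the match at the start itself. Rpl22l1, Rpl41 and Rpl36al did not have it at the start that the table annotates. CCGGAAG, the core that ETS factors such as GABP bind, was found on either strand of the promoter windows in 26 members (40%) and in 2683 genes (9.93%), and it opens the Rpl38 line. A match or its absence describes these letters in these windows and no binding.

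Levels of the tested members, as CPM scaled for library composition, ran from 16.4 CPM for Rps23, the small subunit protein of the decoding centre, to 2150 CPM for Rpl8, with a median of 604 CPM. Of the 81, 75 averaged at least 100 CPM. Reads of processed pseudogenes and their parents could have been split by the counting. The 252 rows with an Rpl or Rps symbol marked -ps took 0.0873% to 0.148% of the counts in the 162 deep libraries. Copies annotated under other names and reads lost in the counting were not measured. Their part in low levels such as those of Rps12 and Rps23 was not tested. The untested members were low. Rpl3l, the striated muscle form of Rpl3, had 9 counts in all 164 libraries, and Rpl39l, the testis form of Rpl39, had 1 count. Rps12 had 546 counts (mean 2.52 CPM) and Rps27rt, an intronless copy of Rps27, had 626 (mean 2.97 CPM), against a level for 3 counts of 1.21 to 3.23 CPM in the deep libraries. Across the 41 groups, the highest group mean of the 162 deep libraries was over 1.5 times the lowest for 28 of the 81 tested members and over 2 times for 1, Rpl38 (2.22 times), a surface protein of the large subunit that averaged 1160 CPM. With the 2 shallow libraries, which held 0 counts of Rpl5 and Rps23, the ratio was 2.03 in place of 1.73 for Rpl5 and 2.41 in place of 1.95 for Rps23.

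Ribosomal protein genes together took 4.87% to 6.65% of the counts of a deep library, with a median of 5.8%. The share moved with how deeply a library was sequenced. It had a median of 5.97% in the 41 shallowest deep libraries (928906 to 1184342 counts), 5.94% and 5.79% in the next 40 and 40, and 5.53% in the 41 deepest (1427983 to 2469454 counts). The 2 libraries of 12191 and 3839 counts had shares of 7.73% and 9.01%.

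**Figure D1:**
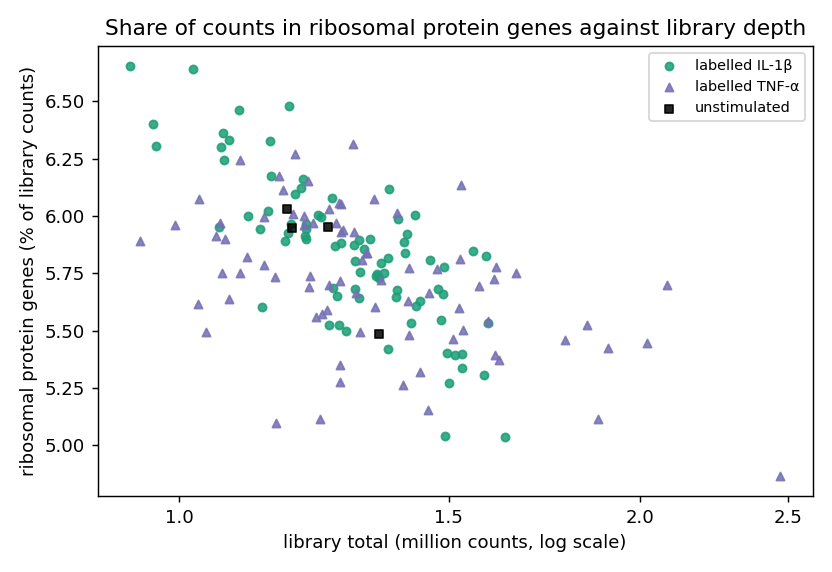
Share of each library's counts in ribosomal protein genes (percent, vertical) against the library total (log scale) for the 162 deep libraries, with circles for libraries labelled IL-1β, triangles for those labelled TNF-α and squares for unstimulated ones. The cloud slopes down, with a median of 5.97% in the 41 shallowest and 5.53% in the 41 deepest of them.

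In a model with group and log2 library total, 40 of 81 members fell with depth at an adjusted p under 0.05 and 0 rose (edgeR's quasi-likelihood test, Benjamini-Hochberg adjustment over 10904 genes, of which 2.55% fell and 1.11% rose). The members' median was -0.182 on the log2 scale per doubling of the total, and 74 of 81 were below 0, beside a median of 0.014 over all genes. Rps24, a small subunit protein of ribosomal RNA processing, fell by 0.368 per doubling (SE 0.039, adjusted p = 8.76e-14), Rpl13 fell by 0.46 and Rpsa, a small subunit protein also known as the laminin receptor, fell by 0.343. Rpl38 was at 0.034 (SE 0.056, adjusted p = 0.828), Rps6 at 0.028 and Rps27l at 0.017. Of 1753 other genes at the level of the members, 138 fell (7.87%) and their median was -0.005. Mitochondrial ribosomal protein genes fell in 4 of 74 cases and ribosome biogenesis genes in 1 of 42. Of 22 other ribosome and translation genes, most with TOP mRNAs, 6 fell with depth (27.3%), with a list median of -0.018. Since library totals also differed between groups, counts of called members are given below from the model with group alone and then from the model that also holds library depth and leaves out the 2 shallow libraries.

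**Figure D2:**
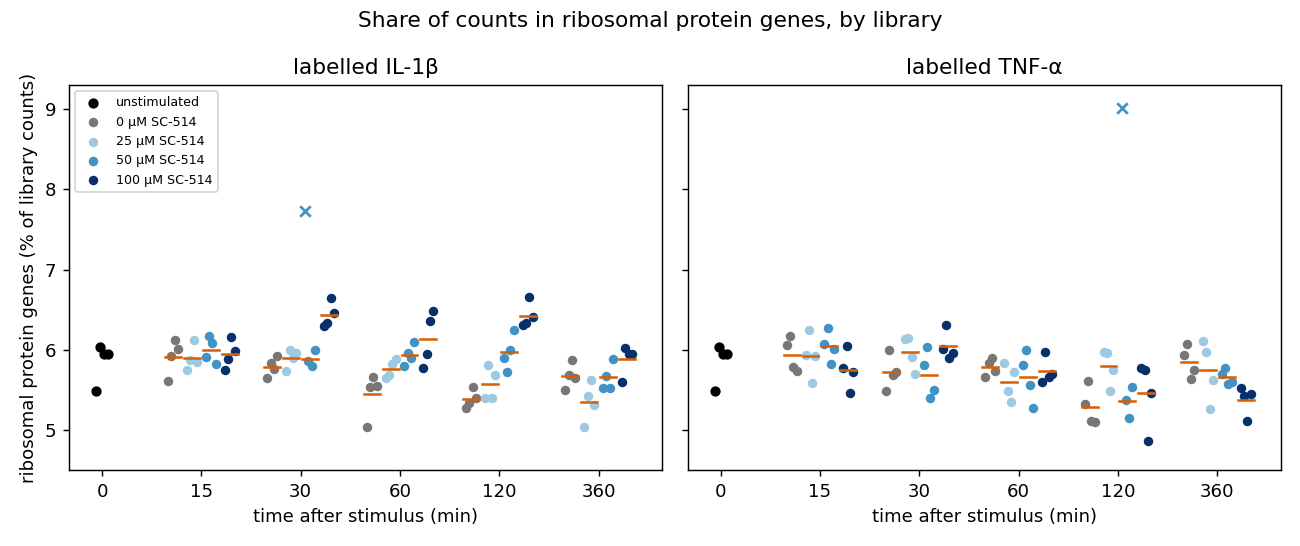
Share of each library's counts in ribosomal protein genes (percent, vertical) by time after stimulus (min, horizontal), for unstimulated libraries (black, at 0) and for 0, 25, 50 and 100 µM SC-514 (grey to dark blue), with libraries labelled IL-1β left and TNF-α right. Bars are means of the deep libraries and crosses the 2 shallow ones. At 120 min labelled IL-1β the 100 µM libraries averaged 6.42%, and at 360 min labelled TNF-α they averaged 5.38%.

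By group, the share at 120 min labelled IL-1β was 6.42% ± 0.159 at 100 µM and 5.39% ± 0.112 at 0 µM (SD, n = 4 each). Median library totals there were 963476.5 at 100 µM and 1515533 at 0 µM. At 360 min labelled TNF-α it was 5.38% ± 0.18 at 100 µM and 5.85% ± 0.193 at 0 µM (SD, n = 4 each), with median totals of 1892266.5 and 1086521. Unstimulated cells had 5.86% ± 0.248 (SD, n = 4). In both cytokine comparisons the group with the larger share had the smaller libraries, and the totals did not overlap. At 120 min labelled IL-1β they were 928906 to 1077984 with 100 µM and 1417954 to 1531296 with 0 µM. At 360 min labelled TNF-α they were 1846457 to 2020867 and 1030538 to 1275752. Depth and SC-514 therefore cannot be told apart in these comparisons, and the model with depth rests there on a slope shared by all groups.

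The question addressed by the inhibitor comparison is what blocking IKKβ before the cytokine does to transcript levels. In cells labelled IL-1β, more members were called higher than lower with 100 than with 0 µM SC-514 at 30, 60 and 120 min, in both models. At 120 min, 49 of 81 members rose and 3 fell, where 14.3% and 16.2% of the 10766 genes tested did so, with a median log2 change of 0.262 for the members and 0.031 for all genes. Of 8 fibroblast marker genes 4 rose and 0 fell there, at a summed level of 8532 to 9970 CPM of the library total with 100 µM and 7844 to 8338 CPM with 0 µM, and their part was not tested. The rises of the members took in 21 of 32 small subunit and 28 of 49 large subunit genes. Number 1 of the 100 µM libraries had 14634 genes detected, against 13198 to 13350 in the others of its group. With library depth in the model 36 rose and 9 fell (11.4% and 14.3% of all genes), of which 35 and 3 were called the same way in both models.

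Rpl39, a small protein at the exit tunnel, stood at 960, 1086, 1138 and 1014 CPM with 100 µM at 120 min labelled IL-1β, against 699.8, 653.8, 647.7 and 687 CPM with 0 µM. The groups did not overlap, and the log2 change was 0.64 (SE 0.073, adjusted p = 2.01e-13), or 0.6 with depth in the model. Rpl10a, the protein of the L1 stalk, stood at 512, 499.2, 560.2 and 524.9 CPM with 100 µM, against 336.3, 325.9, 290.3 and 352.3 CPM with 0 µM. All 4 inhibited libraries were above all 4 others, with a log2 change of 0.68 (SE 0.082, adjusted p = 2.21e-12), or 0.58 with depth in the model. Rplp1, one of the acidic stalk proteins that recruit elongation factors, stood at 2038, 2040, 2158 and 2125 CPM with 100 µM, against 1471, 1435, 1532 and 1494 CPM with 0 µM. Its groups did not overlap either, but its log2 change of 0.49 (adjusted p = 5.14e-12) was 0.31 with depth in the model. Of its partners in the stalk, Rplp2 changed by 0.19 (adjusted p = 0.0776) and Rplp0, the stalk base, by 0.08 (adjusted p = 0.313). Rpl31, at the exit tunnel, rose by 0.57 (adjusted p = 3.72e-12), or 0.53 with depth. Rps6, the phosphorylated substrate of the S6 kinases, rose by 0.49 (adjusted p = 1.25e-06), or 0.5 with depth, and stood at 419.1 to 538.4 CPM with 100 µM and at 314.6 to 372 CPM with 0 µM. Rpsa rose by 0.24 (adjusted p = 0.0023), a call lost with depth in the model (log2 change 0.03, adjusted p = 0.792).

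The other times labelled IL-1β gave different balances for 100 against 0 µM. At 15 min 5 members rose and 15 fell (11.2% and 13.6% of all genes), and 6 and 14 with depth in the model (11.7% and 13.2%). Relative log expression, library totals and DESeq2 gave 12 and 11, 12 and 10, and 11 and 9 at 15 min. At 30 min 32 rose and 2 fell (10.1% and 12.5% of all genes), and 14 and 4 with depth (8.55% and 11.2%). At 60 min 31 rose and 2 fell (11.5% and 14.4% of all genes), and 22 and 3 with depth (10% and 12.8%). At 360 min 5 rose and 12 fell (13.9% and 15.7% of all genes), and 4 and 17 with depth (13.7% and 16.3%). Without the libraries of number 3 the total of 17 calls at 360 min was 11. Number 1 with 100 µM had 15303 genes detected at 360 min, against 13170 to 13529 in the others of its group. The balance at 360 min hung on the scaling of the libraries: with size factors by relative log expression it was 19 higher and 6 lower, with library totals 17 and 4, and with DESeq2 18 and 4. Relative log expression without the 2 shallow libraries gave 5 and 14 at 360 min and 5 and 16 at 15 min. At that time Rpl36 rose by 0.44 (SE 0.128, adjusted p = 0.00511), while Rps4x, the X-linked form of Rps4, fell by 0.21 (SE 0.055, adjusted p = 0.00138).

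**Figure D3:**
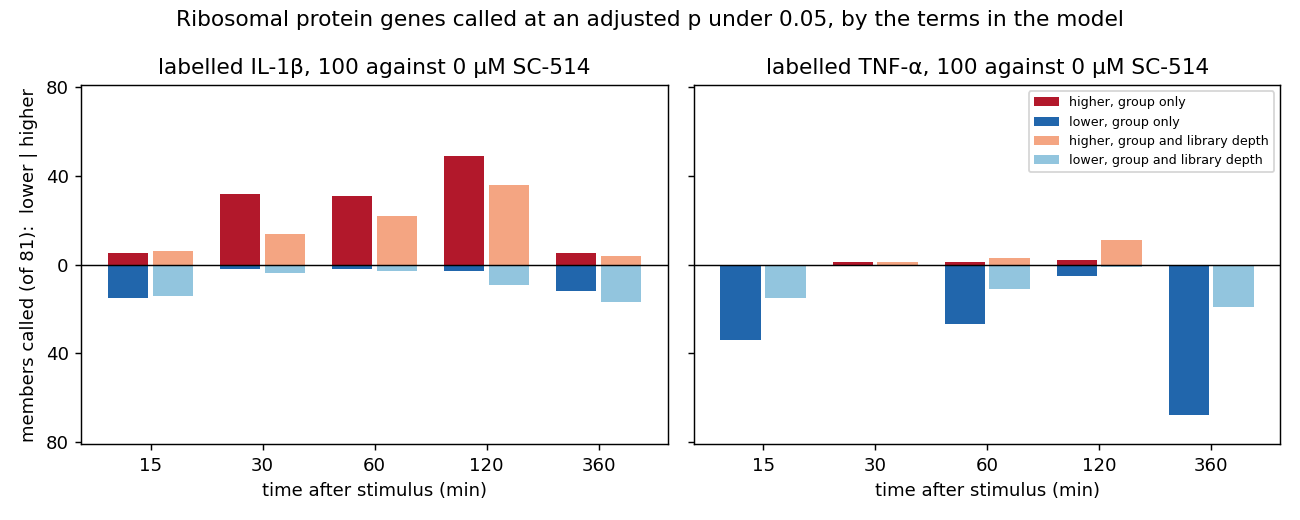
Number of the 81 tested ribosomal protein genes called higher (up, red) or lower (down, blue) at an adjusted p under 0.05, for 100 against 0 µM SC-514 at each time (min, horizontal), with libraries labelled IL-1β left and TNF-α right. Dark bars are from the model with group alone and pale bars from the model with library depth, and at 360 min labelled TNF-α they show 68 lower with group alone and 19 with library depth.

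Rpl38 fell at every time labelled IL-1β. At 15 min labelled IL-1β it stood at 768, 708.1, 747.8 and 809.7 CPM with 100 µM. At 120 min it stood at 829.9, 783.9, 774.9 and 711.9 CPM with 100 µM, against 1033, 1158, 1248 and 1164 CPM with 0 µM. At 360 min it stood at 708, 846.3, 719.7 and 762.5 CPM with 100 µM, against 1062, 1093, 1079 and 1159 CPM with 0 µM. Every library at 100 µM was below every library at 0 µM at all 5 times, and the same held for 50 µM at 5 of 5 times (at 30 min the library of 12191 counts was the lowest, at 621.6 CPM) and for 25 µM at 2 of 5. At 120 min the log2 change was -0.57 (SE 0.064, adjusted p = 8.91e-14) and at 360 min -0.53 (SE 0.064, adjusted p = 2.31e-12), or -0.55 and -0.54 with depth in the model. Taking the 5 times together, Rpl38 fell by 0.16 at 25 µM (adjusted p = 3.63e-06), by 0.38 at 50 µM (adjusted p = 8.3e-25) and by 0.54 at 100 µM (adjusted p = 7.32e-38), 3 comparisons that share the 0 µM libraries. Group means labelled IL-1β ran from 1087 to 1151 CPM at 0 µM, from 914 to 1081 CPM at 25 µM, from 746.4 to 945.1 CPM at 50 µM and from 736.4 to 812.2 CPM at 100 µM, beside 1258 CPM ± 72.08 in unstimulated cells (SD, n = 4). The gene lies at chr11:114668524-114672331 on the plus strand in GRCm38.

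In cells labelled TNF-α, Rpl38 stood at 1320, 1254, 1300 and 1276 CPM with 100 µM at 120 min, against 1569, 1264, 1302 and 1315 CPM with 0 µM, with overlapping groups. Across the 5 times its mean change was 0.13 at 25 µM (adjusted p = 1.82e-06), 0.15 at 50 µM (adjusted p = 1.59e-09) and -0.02 at 100 µM (adjusted p = 0.0353). These p-values are for a change at any of the 5 times and do not test the mean. At 360 min Rpl38 fell by 0.16 with 100 µM (adjusted p = 0.0475), a call lost with depth (-0.18, adjusted p = 0.0726). The change at 100 µM was lower by 0.52 labelled IL-1β than labelled TNF-α on the log2 scale (test of the difference over the 5 times, adjusted p = 1.51e-20), with a difference of -0.5 with depth in the model (adjusted p = 1.76e-11). At each of the 5 times the difference passed the test in both models.

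Rpl35, a protein of the exit tunnel rim, fell beside Rpl38. At 120 min labelled IL-1β it stood at 429.4, 460.3, 452.3 and 454.8 CPM with 100 µM, against 505.2, 587.1, 640.3 and 611 CPM with 0 µM, a log2 change of -0.38 (SE 0.067, adjusted p = 1.11e-06). At 360 min it averaged 417.1 ± 23.92 CPM with 100 µM and 550.6 ± 25.58 CPM with 0 µM (SD, n = 4 each). The groups did not overlap at 5 of 5 times, and depth in the model left the changes at -0.48 and -0.43. Labelled TNF-α the change at 360 min was -0.20 (adjusted p = 0.0135), a call lost with depth (-0.08, adjusted p = 0.475), and the difference between the labels over the 5 times was -0.27 (adjusted p = 2.01e-05), or -0.37 with depth. Rpl22l1, the paralogue of Rpl22, rose: at 120 min labelled IL-1β it stood at 722.6, 777.2, 789.1 and 802.2 CPM with 100 µM, against 590.7, 570.1, 617.5 and 587.9 CPM with 0 µM. Its log2 change was 0.39 (SE 0.055, adjusted p = 1.8e-09), or 0.32 with depth. Rpl22 itself, which in other mouse cells holds down the mRNA of its paralogue, changed by -0.12 at 120 min (adjusted p = 0.271) and fell by 0.26 at 360 min (adjusted p = 0.0064), when Rpl22l1 changed by 0.12 (adjusted p = 0.103). With depth in the model Rpl22 was called lower at both times, with changes of -0.25 and -0.31.

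**Figure D4:**
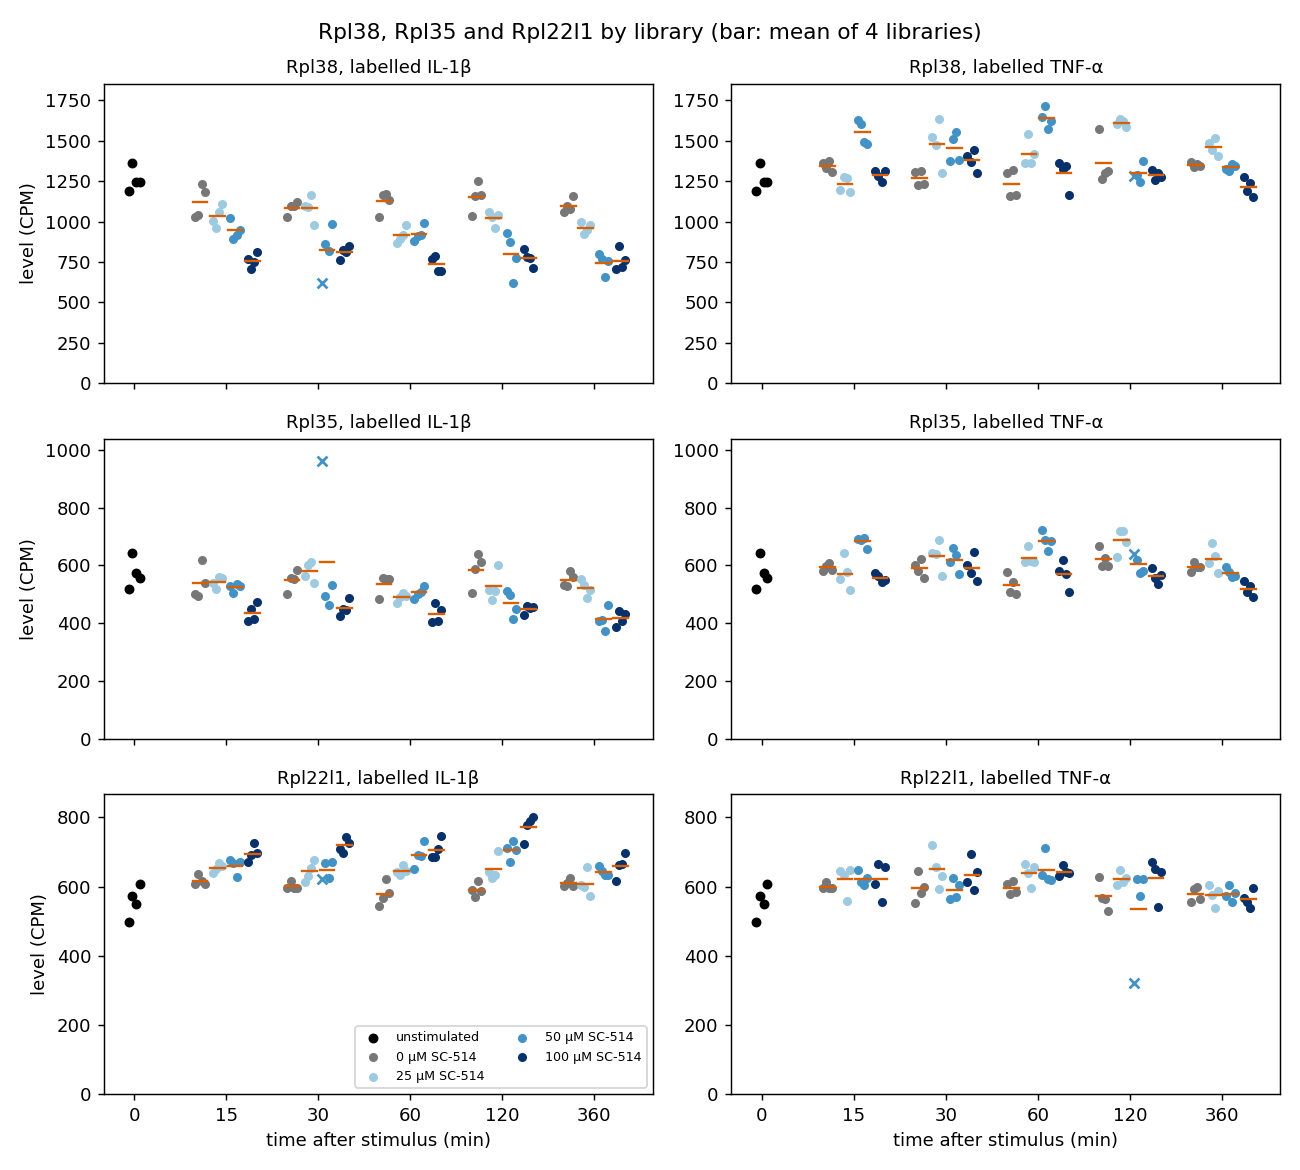
Levels of Rpl38, Rpl35 and Rpl22l1 (CPM, vertical, from 0) in each library by time after stimulus (min, horizontal), for unstimulated cells (black, at 0) and 0, 25, 50 and 100 µM SC-514 (grey to dark blue), with libraries labelled IL-1β left and TNF-α right; bars are means of 4 libraries and crosses the 2 shallow ones. Rpl38 group means labelled IL-1β lie at 736.4 to 812.2 CPM with 100 µM, below the 1087 to 1151 CPM of 0 µM.

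In cells labelled TNF-α, more members were called lower than higher with 100 than with 0 µM SC-514 at 15, 60 and 360 min in both models, though not at 60 min with scaling by library totals (6 higher and 5 lower). At 360 min 0 members rose and 68 of 81 fell, where 11.3% and 15.4% of all genes did so, with a median log2 change of -0.26 for the members and 0.018 for all genes. The falls took in 26 of 32 small subunit and 42 of 49 large subunit genes. With library depth in the model 0 rose and 19 fell (7.68% and 12.2% of all genes), all 19 among the 68. Scaling by relative log expression gave 1 higher and 37 lower, library totals 1 and 32, and DESeq2 1 and 33. Without the 2 shallow libraries relative log expression gave 0 and 70. Of 8 fibroblast marker genes, 7 fell at that time too and 0 rose, with a median of -0.39. Their summed level was 6757 to 7159 CPM of the library total with 100 µM and 7893 to 8044 CPM with 0 µM, and its part in the result was not tested.

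Rpl41, the smallest ribosomal protein, stood at 819.9, 758.8, 749.2 and 782.3 CPM with 100 µM at 360 min labelled TNF-α, against 952.6, 1001, 1027 and 1020 CPM with 0 µM. The groups did not overlap, with a log2 change of -0.36 (SE 0.057, adjusted p = 5.28e-08) and of -0.19 (adjusted p = 0.0158) with depth in the model. Rps18, at the head of the small subunit, stood at 646.2, 611.8, 591.7 and 664.5 CPM with 100 µM, against 829.9, 895.1, 827.3 and 853.2 CPM with 0 µM. It fell by 0.44 (SE 0.069, adjusted p = 5.54e-08), or by 0.24 with depth. Rpl7 fell by 0.40 (adjusted p = 1.23e-07), or by 0.25 with depth. Rps27l, the p53-induced paralogue of Rps27, fell by 0.27 (adjusted p = 4.32e-05) and by 0.29 with depth, whereas Rps27 changed by -0.08 (adjusted p = 0.466). Rplp1 (-0.29), Rpsa (-0.29), Rplp0 (-0.21), Rplp2 (-0.25), Rpl36a (-0.26), Rpl36al (-0.23), Rpl39 (-0.25) and Rpl22 (-0.20) were called lower with group alone. None of these 8 was called with depth in the model, where their adjusted p ran from 0.0963 for Rpl39 to 0.992 for Rpl36al.

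At the earlier times labelled TNF-α, 0 members rose and 34 fell at 15 min (9% and 13.2% of all genes), and 0 and 15 with depth in the model (9.19% and 12.1%). Relative log expression, library totals and DESeq2 gave 2 and 12, 2 and 8, and 1 and 7 there. At 30 min 1 rose and 0 fell (7.12% and 10.8% of all genes), the 1 being Rpl10a in both models (7.29% and 10.7% of all genes with depth), while those scalings gave 6 and 0, 7 and 0, and 2 and 0. At 60 min 1 rose and 27 fell (8.32% and 13.7% of all genes), and 3 and 11 with depth (7.84% and 12.4%), and 5 and 15, 6 and 5, and 4 and 8 with the scalings in the same order. At 120 min 2 rose and 5 fell (11.5% and 15% of all genes), and 11 and 1 with depth (9.26% and 13.8%), so that the balance at that time turned with the model. It turned with the scaling too (11 and 3, 16 and 0, and 6 and 2), and without the 2 shallow libraries it was 2 and 12. Relative log expression without those libraries gave 1 and 34, 1 and 0, 1 and 26 and 2 and 12 at 15, 30, 60 and 120 min.

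Some large subunit genes fell labelled TNF-α in both models. Rpl34 stood at 335.3, 301.1, 272.1 and 323.3 CPM with 100 µM at 360 min, against 441, 454.1, 402 and 411.4 CPM with 0 µM, without overlap. Its mean change over all 5 times was -0.19, -0.33 and -0.30 at 25, 50 and 100 µM (adjusted p = 2.48e-05, 8.28e-13 and 1.37e-12), and -0.19, -0.31 and -0.24 with depth. Rpl35a stood at 506.9, 486.8, 443.8 and 525.6 CPM with 100 µM at 360 min, against 643.9, 672.6, 639.8 and 615.7 CPM with 0 µM, again without overlap. It fell by 0.17, 0.30 and 0.26 over the 5 times at the 3 concentrations, and by 0.18, 0.27 and 0.18 with depth. Rpl27 fell by 0.38 at 50 µM (adjusted p = 3.23e-11) and stood at 246.6, 230.3, 237.8 and 262.3 CPM with 100 µM at 360 min, against 337.6, 356.8, 326.7 and 335.4 CPM with 0 µM. Labelled IL-1β, Rpl35a was higher with 100 µM at 120 min by 0.41 (adjusted p = 3.61e-07) and Rpl34 by 0.27 (adjusted p = 0.00424).

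With the 5 times tested together, 100 against 0 µM labelled IL-1β gave 50 members higher and 13 lower by the sign of the mean change (28.2% and 27.1% of all genes), and 37 and 20 with depth (25.6% and 25.5%). Labelled TNF-α it gave 4 higher and 69 lower (24.1% and 26.2% of all genes), and 9 and 35 with depth (19.2% and 23%). Scaling by relative log expression gave 13 higher and 41 lower labelled TNF-α, library totals 17 and 31, and DESeq2 7 and 34, while relative log expression without the 2 shallow libraries gave 4 and 69. The test of the difference between the labels called 48 members with a higher and 2 with a lower change labelled IL-1β (2.94% and 1.75% of all genes). With depth in the model 7 and 2 were called (0.642% and 0.743% of all genes). All 9 were among the 50, with Rpl34, Rpl35a, Rpl36a, Rpl39, Rplp1 and Rps26 among those with a higher change labelled IL-1β, and Rpl35 and Rpl38 the 2 with a lower one. For Rps26, a protein at the mRNA exit of the small subunit, the difference was 0.46 (adjusted p = 4.34e-15), or 0.24 (adjusted p = 0.0124). Rpl36a differed by 0.39 and by 0.22 with depth, and its paralogue Rpl36al by 0.14 (adjusted p = 0.164).

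With the lower concentrations the test over the 5 times, again with the sign of the mean change as direction, called 15 members higher and 16 lower at 25 µM labelled IL-1β (14.2% and 14.5% of all genes), and 11 and 17 with depth (13.5% and 15.3%). At 50 µM it called 35 and 14 (19.2% and 20.8% of all genes), and 26 and 18 with depth (17.6% and 20.3%). At 25 µM labelled TNF-α it called 21 and 25 (11.1% and 12.8% of all genes), and 18 and 19 with depth (10.6% and 14.1%). At 50 µM labelled TNF-α it called 6 and 45 (16.3% and 19.6% of all genes), and 9 and 36 with depth (15.4% and 19.6%). Leaving out only the 2 shallow libraries gave 34 and 17 at 50 µM labelled IL-1β and 5 and 49 labelled TNF-α. Without the libraries of number 1, 2 or 4 the 31 calls at 25 µM labelled IL-1β were 16, 16 and 20. Without number 2 or 3 the 46 calls at 25 µM labelled TNF-α were 29 in both cases, and without number 4 the 51 calls at 50 µM were 30. Scaling moved the split at 25 µM labelled IL-1β to 19 and 8 with library totals and to 12 and 6 with DESeq2. At 25 µM labelled TNF-α it moved to 25 and 19, 27 and 13, and 22 and 12 with relative log expression, library totals and DESeq2, and at 50 µM to 11 and 27, 14 and 25, and 8 and 26. Without the 2 shallow libraries relative log expression gave 17 and 17 at 25 µM labelled IL-1β. Labelled TNF-α it then gave 21 and 24 at 25 µM and 6 and 46 at 50 µM.

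At single times, 25 µM labelled IL-1β gave 0 calls at 15 min (5.48% higher and 5.29% lower of all genes) and at 30 min (3.04% and 2.73%) by edgeR, and 0 by DESeq2. At an unadjusted p under 0.05 in edgeR there were 0 higher and 1 lower at 15 min, and 1 higher and 3 lower at 30 min. With depth in the model there were also 0 and 0 at both times (5.5% and 5.59%, and 2.96% and 2.97%). At 60 min there were 10 higher and 1 lower (5.78% and 6.35%), and 5 and 1 with depth (5.24% and 6.65%). At 120 min there were 7 and 1 (6.75% and 7.19%), and 7 and 3 with depth (6.08% and 7.79%), where Rpl38 was the member that fell at both times in the model with group alone. At 50 µM the calls labelled IL-1β were 1 higher and 2 lower (6.46% and 7.92%) at 15 min, and 1 and 3 with depth (6.45% and 8.15%). They were 1 and 4 (6.37% and 8.27%) at 30 min, and 1 and 5 with depth (6.19% and 8.18%), a group with the library of 12191 counts, and 1 and 5 were called without the 2 shallow libraries. They were 18 and 1 (7.66% and 9.88%) at 60 min, and 7 and 1 with depth (5.72% and 8.83%), and 3 and 9 (5.75% and 8.68%) at 360 min, and 4 and 11 with depth (5.76% and 8.88%). Relative log expression, library totals and DESeq2 gave 2 and 2, 2 and 2, and 1 and 1 at 15 min, 4 and 4, 4 and 4, and 2 and 2 at 30 min, 20 and 1, 30 and 1, and 16 and 1 at 60 min and 6 and 7, 6 and 6, and 5 and 6 at 360 min. Relative log expression without the 2 shallow libraries gave 1 and 2, 1 and 5, 18 and 1 and 4 and 11 at the same times. Rpl38 had the smallest p among the falls at each of these times, and Rpl10a rose by 0.43 at 60 min (adjusted p = 9.43e-06).

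Labelled TNF-α, 25 µM gave 0 higher and 1 lower at 15 min (3.78% and 4.09%), and 0 and 1 with depth (3.63% and 4.68%). It gave 6 and 0 (3.75% and 4.63%) at 30 min, and 6 and 0 with depth (3.47% and 5.18%), 2 and 19 (4.07% and 5.58%) at 60 min, and 2 and 17 with depth (3.99% and 6.03%), and 0 and 8 (0.474% and 2.25%) at 360 min, and 0 and 6 with depth (0.614% and 2.36%). The 3 scalings gave 3 and 17, 3 and 12, and 2 and 8 at 60 min and 0 and 6, 0 and 4, and 0 and 4 at 360 min. At 50 µM it gave 3 and 6 (6.19% and 8.51%) at 15 min, and 3 and 7 with depth (6.25% and 8.59%), and 1 and 6 (5.5% and 8.64%) at 30 min, and 1 and 3 with depth (5.11% and 8.88%). At 120 min, a group with the library of 3839 counts, it gave 1 and 2 (5.3% and 8.18%), and 4 and 0 with depth (5.08% and 8.44%), and at 360 min 0 and 21 (2.43% and 7.07%), and 0 and 9 with depth (2.27% and 6.52%). Without the 2 shallow libraries the counts at 30, 120 and 360 min were 1 and 11, 0 and 3 and 0 and 24. The 3 scalings gave 5 and 6, 5 and 5, and 3 and 4 at 15 min, 3 and 3, 3 and 3, and 2 and 3 at 30 min, 1 and 0, 3 and 0, and 1 and 0 at 120 min and 0 and 7, 0 and 4, and 0 and 2 at 360 min. Relative log expression without the 2 shallow libraries gave 3 and 6, 1 and 7, 0 and 3 and 0 and 24 at these times. For 25 µM it gave 2 and 19 at 60 min and 0 and 9 at 360 min. Rpl35a had the smallest p among the falls at 60 and 360 min with 25 µM and at 15, 30 and 360 min with 50 µM.

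Among members with a mean change above 0 over the 5 times labelled IL-1β, Rpl10a had the smallest p at 25 and 50 µM, with means of 0.14 (adjusted p = 6.45e-06) and 0.29 (adjusted p = 3.71e-13), and Rps20 had means of 0.11 and 0.21. Labelled TNF-α at 60 min and 50 µM, 5 members rose and 36 fell (7.89% and 10.5% of all genes), and 6 and 36 with depth (7.69% and 10.9%). The 3 scalings gave 8 and 30, 10 and 29, and 8 and 28. Relative log expression without the 2 shallow libraries gave 6 and 35. In the model with group alone Rpl38 was higher by 0.41 (adjusted p = 6.6e-08), Rpl35 by 0.37 (adjusted p = 5.27e-06) and Rpl36 by 0.60, while Rpl27 fell by 0.71 (adjusted p = 4.59e-08). At 120 min labelled TNF-α and 25 µM, 28 rose and 0 fell (4.03% and 4.79% of all genes), and 24 and 0 with depth (3.57% and 5.49%), led by Rps20 (0.39, adjusted p = 4.67e-05) and Rps18 (0.35). At 360 min labelled IL-1β and 25 µM, 0 rose and 14 fell (1.87% and 3.9% of all genes), and 1 and 13 with depth (1.8% and 3.94%), or 1 and 11, 1 and 11, and 1 and 7 with the 3 scalings, led by Rpl27 (-0.50, adjusted p = 0.000325). At 120 min labelled IL-1β and 50 µM, 37 rose and 2 fell (9.97% and 11.6% of all genes), and 28 and 4 with depth (8.24% and 11.2%), the 2 being Rpl38 (-0.52, adjusted p = 7.07e-12) and Rpl35 (-0.32, adjusted p = 7.3e-05).

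The cytokines were also compared with unstimulated cells at 0 µM. Labelled IL-1β, 1 member rose and 0 fell at 15 min (0.121% and 0.0464% of all genes), and 1 and 0 with depth (0.138% and 0.0459%). The calls were 0 higher and 1 lower (0.697% and 0.232%) at 30 min, and 2 and 0 with depth (1% and 0.257%), 0 and 3 (2.74% and 0.622%) at 60 min, and 0 and 0 with depth (2.71% and 0.541%), 0 and 5 (8.17% and 4.36%) at 120 min, and 3 and 2 with depth (8.47% and 3.79%), and 13 higher and 3 lower at 360 min (12.3% and 9.4%). The scalings gave 0 and 3, 0 and 2, and 0 and 2 at 30 min, 0 and 5, 0 and 8, and 0 and 3 at 60 min and 0 and 12, 0 and 21, and 0 and 5 at 120 min. Without the 2 shallow libraries relative log expression gave 0 and 1, 0 and 3 and 0 and 5 at those times. At 360 min Rpl7a rose by 0.30 (SE 0.079, adjusted p = 0.0024), Rps2 by 0.34, Rps13 by 0.31 and Rpl31 by 0.23, while Rplp2 fell by 0.31 (SE 0.087, adjusted p = 0.00381), Rpl38 by 0.20 and Rpl30 by 0.21. These 16 calls were kept with depth in the model, which called 21 and 3 (13.1% and 8.9% of all genes). Without the libraries of number 1 or 2 there were 6 and 3 calls at 360 min. Scaling turned the split: relative log expression gave 6 and 9, library totals 3 and 11, and DESeq2 4 and 7, while relative log expression without the 2 shallow libraries gave 14 and 3. Rplp2 stood at 172.5, 183.7, 167.4 and 201.3 CPM at 360 min and at 191.7, 305.4, 191.1 and 215.1 CPM in unstimulated cells, so the groups overlapped and 1 unstimulated library was high. Over the 5 times 20 passed with a mean change above 0 and 11 with one below 0 (14.2% and 9.33% of all genes), and 20 and 5 with depth (14.9% and 8.66%). Without the libraries of number 1, 2 or 3 these 31 calls were 15, 11 and 18. Other scalings gave 16 and 18, 16 and 24, and 11 and 12 for relative log expression, library totals and DESeq2. Without the 2 shallow libraries relative log expression gave 21 and 15.

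Labelled TNF-α with 0 µM against unstimulated cells, 0 members were called at 15, 30 and 360 min by edgeR, and 0 by DESeq2. At an unadjusted p under 0.05 in edgeR there were 13 higher and 0 lower, 1 higher and 2 lower, and 7 higher and 0 lower at those times (with depth in the model 0 were called too; 0.0836%, 0.557% and 3.62% of all genes rose and 0.102%, 0.102% and 1.8% fell at the adjusted threshold). At 60 min 13 rose and 1 fell (4.16% and 1.25% of all genes), led by Rps13 (0.36, adjusted p = 0.00325), Rps20 (0.28) and Rpl31 (0.27), with Rpl12 of the stalk base the 1 that fell (-0.35, adjusted p = 0.0179). With depth the counts were 13 and 2 (4.32% and 1.46%), and with the 3 scalings 6 and 3, 1 and 4, and 2 and 2. At 120 min 1 rose and 12 fell (9.14% and 5.11% of all genes), among them Rpl36al (-0.34, adjusted p = 0.00065) and Rpl21 (-0.30), and Rpl36 rose by 0.35. With depth the counts were 1 and 13 (9.8% and 4.77%), and with the 3 scalings 0 and 29, 0 and 42, and 0 and 21. Relative log expression without the 2 shallow libraries gave 12 and 1 at 60 min and 1 and 13 at 120 min. Over the 5 times 30 passed with a mean change above 0 and 6 with one below 0 (12.6% and 7.1% of all genes), and 30 and 9 with depth (13.4% and 7.17%). The mean change was 0.04 for Rps10 and 0.01 for Rps18. Scaling moved this split to 16 and 23, 17 and 29, and 15 and 20 with relative log expression, library totals and DESeq2. Without the 2 shallow libraries relative log expression gave 30 and 7.

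Between the cytokine labels at 0 µM, the test over the 5 times called 7 members higher and 9 lower labelled IL-1β (4.83% and 4.73% of all genes), and 12 and 4 with depth (5.08% and 4.8%). Without the libraries of number 1, 2 or 3 these 16 calls were 5, 10 and 10. Rpl36al, the autosomal retrocopy of the X-linked Rpl36a, was higher labelled IL-1β by 0.21 (adjusted p = 1.83e-06), or 0.28 with depth (adjusted p = 5.57e-10). At 120 min it stood at 289.1, 302.1, 284.4 and 296 CPM labelled IL-1β, against 197.6, 283.1, 232.5 and 219.5 CPM labelled TNF-α, without overlap. Rpl36a did not follow it (-0.05, adjusted p = 0.321). Rpl38 was lower labelled IL-1β by 0.23 (adjusted p = 9.29e-10), or 0.24 with depth, in cells without inhibitor: at 360 min it stood at 1062 to 1159 CPM labelled IL-1β and at 1336 to 1369 CPM labelled TNF-α. Rpl36 was lower by 0.35 (adjusted p = 1.36e-05) and Rpl37 by 0.16 (adjusted p = 1.97e-05). Rplp1 was lower by 0.13 (adjusted p = 0.00158), a call lost with depth (adjusted p = 0.104).

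Ribosome biogenesis genes, a list of 42 that make and assemble the subunits in the nucleolus, were called lower more often than higher with 100 µM SC-514 under both labels, in the model with group alone. With 100 against 0 µM labelled IL-1β, 30, 32, 29, 30 and 24 of the 42 fell at 15, 30, 60, 120 and 360 min (13.6%, 12.5%, 14.4%, 16.2% and 15.7% of all genes) and 3, 1, 1, 0 and 0 rose, with medians of -0.378, -0.458, -0.406, -0.478 and -0.286. Labelled TNF-α, 27, 29, 27, 29 and 21 fell (13.2%, 10.8%, 13.7%, 15% and 15.4% of all genes) and 1 rose at each time, with medians of -0.397, -0.467, -0.384, -0.422 and -0.227. At 120 min labelled IL-1β, Rrs1 fell by 1.04 (adjusted p = 5.51e-20), Nolc1 by 0.72 and the helicase Ddx21 by 0.61, while labelled TNF-α Grwd1 fell by 0.99 (adjusted p = 5.33e-15). The test of the difference between the labels at 100 µM over the 5 times called 1 of these 42 genes. Over all genes it called 2.94% with a higher and 1.75% with a lower change labelled IL-1β, so few calls were not particular to this list. With 0 µM at 360 min labelled IL-1β against unstimulated cells, 17 of the 42 rose and 1 fell (12.3% and 9.4% of all genes).

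A further list held 22 other ribosome and translation genes, most with TOP mRNAs, of which 6 fell with library depth. Changes in this paragraph are from the model with group alone. At 360 min labelled TNF-α median library totals were 1892266.5 with 100 µM and 1086521 with 0 µM, and the part of depth in this list was not tested. At 360 min labelled TNF-α, 0 rose and 18 fell with 100 against 0 µM (11.3% and 15.4% of all genes), with a median of -0.242, among them the elongation factor genes Eef1g (-0.50, adjusted p = 1.72e-10) and Eef1a1 (-0.38). At 120 min labelled IL-1β, 9 rose and 4 fell (14.3% and 16.2% of all genes), with a median of 0.06. There Eef2 rose by 0.42, whereas Naca fell by 0.52. Of the 74 tested mitochondrial ribosomal protein genes, 4 rose and 14 fell at 120 min labelled IL-1β (5.41% and 18.9% of the list, beside 14.3% and 16.2% of all genes), and 14 rose and 4 fell at 360 min labelled TNF-α (18.9% and 5.41%, beside 11.3% and 15.4%). Among 15 regulators of these mRNAs and of ribosome synthesis, Larp1, the repressor that binds TOP mRNAs, fell at 120 min under both labels, by 0.40 (adjusted p = 1.43e-05 labelled IL-1β and 5.97e-06 labelled TNF-α).

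**Figure D5:**
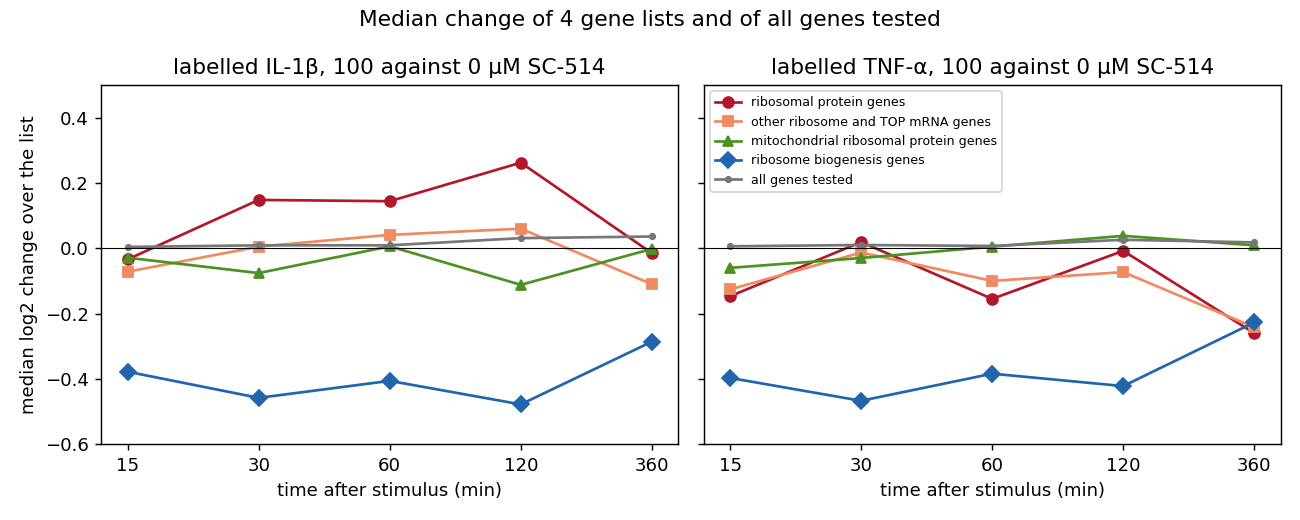
Median log2 change with 100 against 0 µM SC-514 (vertical) at each time (min, horizontal) for ribosomal protein genes, other ribosome and TOP mRNA genes, mitochondrial ribosomal protein genes, ribosome biogenesis genes and all genes tested, with libraries labelled IL-1β left and TNF-α right. The biogenesis medians lie between -0.227 and -0.478 at every time and under both labels, while the ribosomal protein medians reach 0.262 labelled IL-1β and -0.26 labelled TNF-α. All changes shown are from the model with group alone.

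Rps19bp1 and Rpl7l1 match the naming rule although they encode a partner of Rps19 and a relative of Rpl7. Rps19bp1 fell at 120 min labelled IL-1β with 100 against 0 µM by 0.28 (SE 0.093, adjusted p = 0.0123), as the third lower member beside Rpl38 and Rpl35. It changed by 0.03 at 360 min labelled IL-1β and by 0.02 labelled TNF-α (adjusted p = 0.869 and 0.88). Rps27 rose by 0.36 at 120 min labelled IL-1β (adjusted p = 7.72e-05), or by 0.25 with depth, and its paralogue Rps27l changed by 0.07 (adjusted p = 0.404). Rpl36a rose there by 0.45 (adjusted p = 7.92e-10), or by 0.29 with depth, and Rpl36al changed by 0.14 (adjusted p = 0.166).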

How the data were processed

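The authors deposited 1 table of raw counts per gene, whole numbers for 22070 genes in 164 libraries, to which 656 sample records point, 4 to a library. Per the submitters' processing notes, reads were aligned with Bowtie2 to GRCm38 (mm10), and for the counting tool and its annotation no source used here gives a name. Gene ids were matched to GENCODE M21 for names and types (21858 matched, 212 did not), and coordinates are in that build.

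From these counts, genes were filtered with filterByExpr by group, libraries were scaled by TMM, and 1 quasi-likelihood model with 41 groups was fitted in edgeR 4.0.16 (R 4.3.3), with 123 residual degrees of freedom. Adjusted p-values are Benjamini-Hochberg values over the 10766 genes tested, called under 0.05. A test over the 5 times is an F test, and its direction is the sign of the mean of the 5 log2 changes. It asks for a change at any of the times, so its p-value does not test the mean printed beside it. CPM uses TMM-scaled totals. The code was tested on simulated data. A second model, chosen after seeing that the share of the members was lower in deeper libraries, added the log2 library total and left out the 2 libraries under 100000 counts. Deep libraries held 928906 to 2469454 counts, which limits low genes, and intervals and floors cover counting error only.

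The members and lists were chosen with earlier results of these data known. Named with values were, for each test over the 5 times and each contrast at 360 min, up to 4 called members in each direction with the smallest p, and always Rplp0, Rplp1, Rplp2, Rpsa, Rps6, Rpl22, Rpl22l1, Rps27, Rps27l, Rpl39, Rpl39l, Rpl36a, Rpl36al and Rps19bp1, together with members at or under the floor of 3 counts. Up to 3 genes were named from other lists. Some genes that the rule selects are not reported here by name, and the counts include them. Members named for other times, among them Rpl34 and Rpl35a at single times, were chosen after their values were seen. The comparison at 120 min labelled IL-1β and the test of the difference between the labels were added for the same reason. Of 246 pairs of libraries within groups, 0 were identical. Alternatives were other scalings (relative log expression, and library totals), no filter, DESeq2 1.42.0, a replicate block, only the groups compared, and libraries left out.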

Additional observations from a re-analysis of the deposited data

Results flagged for a closer look

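Of 41 groups tested for a library apart from the other 3 in the share of ribosomal protein genes, 3 held one, and of 216 groups of single members 9 did. Chance gives about 1 in 20 groups. The shares were 7.727% in number 1 labelled IL-1β at 50 µM and 30 min, a library of 12191 counts, and 9.013% in number 1 labelled TNF-α at 50 µM and 120 min, a library of 3839 counts. Among unstimulated libraries, number 1 had 5.488%, against 5.95% to 6.032% in the others.

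For single members, Rpl38 was at 1569 CPM in number 1 labelled TNF-α at 0 µM and 120 min, where the others had 1264 to 1315 CPM. In the same group number 2 had 324.4 CPM of Rpl27, with the others at 240.9 to 251.2 CPM, and 706.8 CPM of Rps26, with the others at 576.7 to 584 CPM. Number 4 labelled TNF-α at 100 µM and 360 min was high for 3 members, with Rpl39 at 741 CPM (others 632.2 to 640.1), Rps6 at 353.8 CPM (others 302.4 to 310.4) and Rps27l at 648 CPM (others 563.9 to 575). Rps6 was at 275.8 CPM in number 3 labelled TNF-α at 100 µM and 120 min, where the others had 350.1 to 354.5 CPM. Rpl41 was at 1011 CPM in number 3 labelled IL-1β at 0 µM and 120 min, with the others at 888.8 to 899.5 CPM. Rpsa was at 1210 CPM in number 1 of the unstimulated libraries, with the others at 1354 to 1383 CPM.

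The change with 100 µM SC-514 differed between the stimulus labels for 50 of 81 members by the test of the difference over the 5 times, and for 9 with library depth in the model.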

How the results depend on the processing

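Of 15 counts of called members under 14 alternatives each, 185 of 210 values were within 1.5 times the reported count. The same held for 431 of 630 values of 45 other counts, while 199 moved further. Each count adds members called higher and lower, so a turned balance can pass as within 1.5 times. An example was 360 min labelled IL-1β against unstimulated cells, where 13 higher and 3 lower became 6 and 9 with relative log expression. Without the 2 shallow libraries that scaling gave 14 and 3. Single named members kept direction and call in 530 of 616 values of single contrasts, lost the call in 86 and turned direction in 0. Over the 5 times 168 of 1862 lost the call and 52 turned the sign of the mean. At 360 min labelled TNF-α, the 68 members called with 100 µM were 38 with relative log expression, 33 with library totals, 34 with DESeq2 and 19 with library depth in the model. Over the 5 times, the 73 called there with 100 µM were 48 with library totals, 41 with DESeq2 and 44 with depth. The 31 called with 25 µM labelled IL-1β were 18 with DESeq2, the 16 called between the labels at 0 µM were 25 with only those groups in the model, and the 50 with a difference between the labels were 9 with depth. The median log2 change of all genes was -0.018 to 0.036 as reported, -0.073 to 0.143 with relative log expression (-0.017 to 0.036 without the 2 shallow libraries), -0.074 to 0.143 with DESeq2 and -0.108 to 0.157 with library totals, and the cause was not tested.

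Leaving out each library number in turn gave 3 to 14 calls labelled IL-1β at 360 min against unstimulated cells, 0 to 0 labelled TNF-α, 46 to 49 with 100 µM labelled IL-1β at 120 min, 11 to 15 at 360 min, and 52 to 63 labelled TNF-α at 360 min. Over the 5 times it gave 11 to 23 labelled IL-1β and 24 to 30 labelled TNF-α against unstimulated cells. With 25, 50 and 100 µM it gave 16 to 27, 35 to 45 and 56 to 63 labelled IL-1β, and 29 to 41, 30 to 49 and 59 to 65 labelled TNF-α. It gave 5 to 11 between the labels and 39 to 46 for the difference.

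Over all genes tested, same-numbered libraries correlated over 0.1 in every pair in 0 of 45 comparisons (mean correlation 0.0394), so the numbers were not taken as pairs. This rule is strict and does not exclude a weaker link between same-numbered libraries. The share of the members still varied with the number. In deep libraries labelled TNF-α its medians were 5.81%, 5.98%, 5.57% and 5.71% for numbers 1, 2, 3 and 4. Labelled IL-1β they were 5.65%, 5.86%, 5.9% and 5.94%. With library number as a replicate block the calls were 18 at 360 min labelled IL-1β against unstimulated cells, 0 labelled TNF-α, 52 with 100 µM labelled IL-1β at 120 min, 18 at 360 min, and 70 labelled TNF-α at 360 min. Over the 5 times the block gave 35 and 37 against unstimulated cells, 35, 55 and 66 at 25, 50 and 100 µM labelled IL-1β, 48, 52 and 73 labelled TNF-α, 19 between the labels and 52 for the difference.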
